A study of Mus musculus with 18 samples.

Results

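The 9 genes described here are Pecam1, Cdh5, Esam, Kdr, Flt1, Tie1, Tek, Eng and Vwf, which mark endothelial cells, the lining of blood vessels and of the heart chambers. They were chosen by gene name from the deposited count tables, in which 35560 genes could be matched between tables, and all 9 had enough reads to be tested among 14623 genes. In the RefSeq annotation of GRCm38.p6 they lie on mouse chromosomes 11 (Pecam1), 8 (Cdh5), 9 (Esam), 5 (Kdr and Flt1), 4 (Tie1 and Tek), 2 (Eng) and 6 (Vwf). Their RNA was measured in heart tissue of wild-type male C57BL/6 mice. Mice of the ISO+100 nm PS and ISO+1 µm PS groups received polystyrene (PS) particles of that size by daily oral gavage at 50 mg/kg/day for 21 days, and mice of the ISO group received water by gavage. All mice of all 3 groups also received isoproterenol (ISO), a beta-adrenergic agonist that stresses the heart, dissolved in PBS and injected under the skin every day over the same 21 days, at 2.5 mg/kg/day. No mice without ISO were in the study, and the age of the mice is not given in the labels. Each group has 6 libraries, and the design asks how swallowed PS alters the heart under ISO and if the size of the particles plays a part. The groups are called 100 nm PS, 1 µm PS and ISO hearts below.

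Endothelial cells hold on to each other through proteins at their borders, among them PECAM-1 (Pecam1), VE-cadherin (Cdh5) and ESAM (Esam). They sense vascular endothelial growth factors (VEGF) through the receptor tyrosine kinases VEGFR2 (Kdr), which carries most of the growth signal, and VEGFR1 (Flt1), which binds VEGF-A tightly and also exists as a soluble decoy. They sense angiopoietins through TIE2 (Tek), which is modulated by its relative TIE1 (Tie1), and bone morphogenetic proteins through ALK1 with its co-receptor endoglin (Eng). Von Willebrand factor (Vwf) is the clotting protein that they store in Weibel-Palade bodies, and in the heart it is more abundant in larger vessels and endocardium than in capillaries.

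The sequences upstream of Eng, which passed at both sizes, and of Tie1, the GC-rich receptor gene that passed with both PS groups together, are shown as 250 bases before the annotated start, from RefSeq on GRCm38.p6, with GGAA, the core letters that Ets-family factors bind, in capitals on either strand (as GGAA or TTCC). The window of Eng lies at chr2:32646345-32646594 on the plus strand and that of Tie1 at chr4:118489850-118490099 on the minus strand.
Eng: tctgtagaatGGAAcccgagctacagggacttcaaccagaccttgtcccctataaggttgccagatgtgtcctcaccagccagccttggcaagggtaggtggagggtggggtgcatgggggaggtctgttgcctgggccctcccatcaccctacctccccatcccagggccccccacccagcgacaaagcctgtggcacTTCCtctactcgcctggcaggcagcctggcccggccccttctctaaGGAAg
Tie1: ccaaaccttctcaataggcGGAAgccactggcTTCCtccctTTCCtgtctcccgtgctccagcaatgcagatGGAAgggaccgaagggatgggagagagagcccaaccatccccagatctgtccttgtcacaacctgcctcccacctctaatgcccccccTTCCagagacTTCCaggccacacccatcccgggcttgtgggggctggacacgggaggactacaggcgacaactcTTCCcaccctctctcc
GGAA occurred 3 times in the window of Eng and 7 times in that of Tie1, and 93.4% of all 32851 promoter windows in the table hold it, with a median of 3 sites. The windows have 62.4% and 60.4% GC. The RefSeq table also matched Tek, Kdr and Flt1, 5 of the 9 genes in all. A match is a description of letters and shows no binding.

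The libraries came from 2 sequencing providers, which the labels give as batches. Batch 1 holds 5 libraries of 100 nm PS, 4 of 1 µm PS and 3 of ISO hearts (replicates 1 to 3), and batch 2 holds 1 of 100 nm PS (replicate 6), 2 of 1 µm PS (replicates 5 and 6) and 3 of ISO (replicates 4 to 6). Total counts ran from 14032257 to 22600570 per library. The labels number the libraries but do not say that each is a different animal, so p-values measure the spread between these samples. Levels are CPM, counts scaled to a common library total, and each difference is a log2 fold change from edgeR's quasi-likelihood test with group and batch in the model, with p adjusted by the Benjamini-Hochberg method over all genes tested. A gene passed when its adjusted p was under 0.05. Some features of the libraries touch every result below. ISO replicate 2 had the lowest CPM of the 6 ISO libraries for all 9 genes. Across genes, the deviation of a library from its batch mean followed the GC content of the transcripts, with Spearman coefficients of 0.12 to 0.37 in the 12 PS libraries and -0.61 to 0.01 in the 6 ISO libraries. In batch 2 the genes matched between tables held 93.13% to 95.78% of the counts in PS libraries and 85.16% to 87.45% in ISO libraries. The part of this in the differences was not tested.

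All 9 genes had higher mean CPM in PS hearts than in ISO hearts, and a few of them passed the test. All 9 had a positive log2 fold change at both particle sizes, where 48.2% and 49.8% of all genes did. Of the 9 genes, 3 passed at 100 nm, namely Eng, Esam and Vwf, and Eng alone passed at 1 µm. Of all genes, 3.88% passed as higher and 5.69% as lower at 100 nm, 9.57% in either direction, and 2.89% passed as higher and 4.5% as lower at 1 µm, 7.39% in either direction. The median log2 fold change of the 9 genes was 0.72 at 100 nm and 0.55 at 1 µm, where the median of all genes was -0.02 and 0.00. With both PS groups set together against ISO, 4 of 9 passed as higher, Tie1 being added, where 6.8% of all genes passed as higher, 10.9% as lower and 17.7% in either direction. The comparisons of each size share the same 6 ISO libraries. In whole heart tissue, more endothelial cells and more RNA of these genes per endothelial cell in PS hearts cannot be told apart. The range of no gene in a PS group lay wholly above its range in ISO hearts, where 1.63% of all genes did so at 100 nm and 1.12% at 1 µm.

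**Figure D1:**
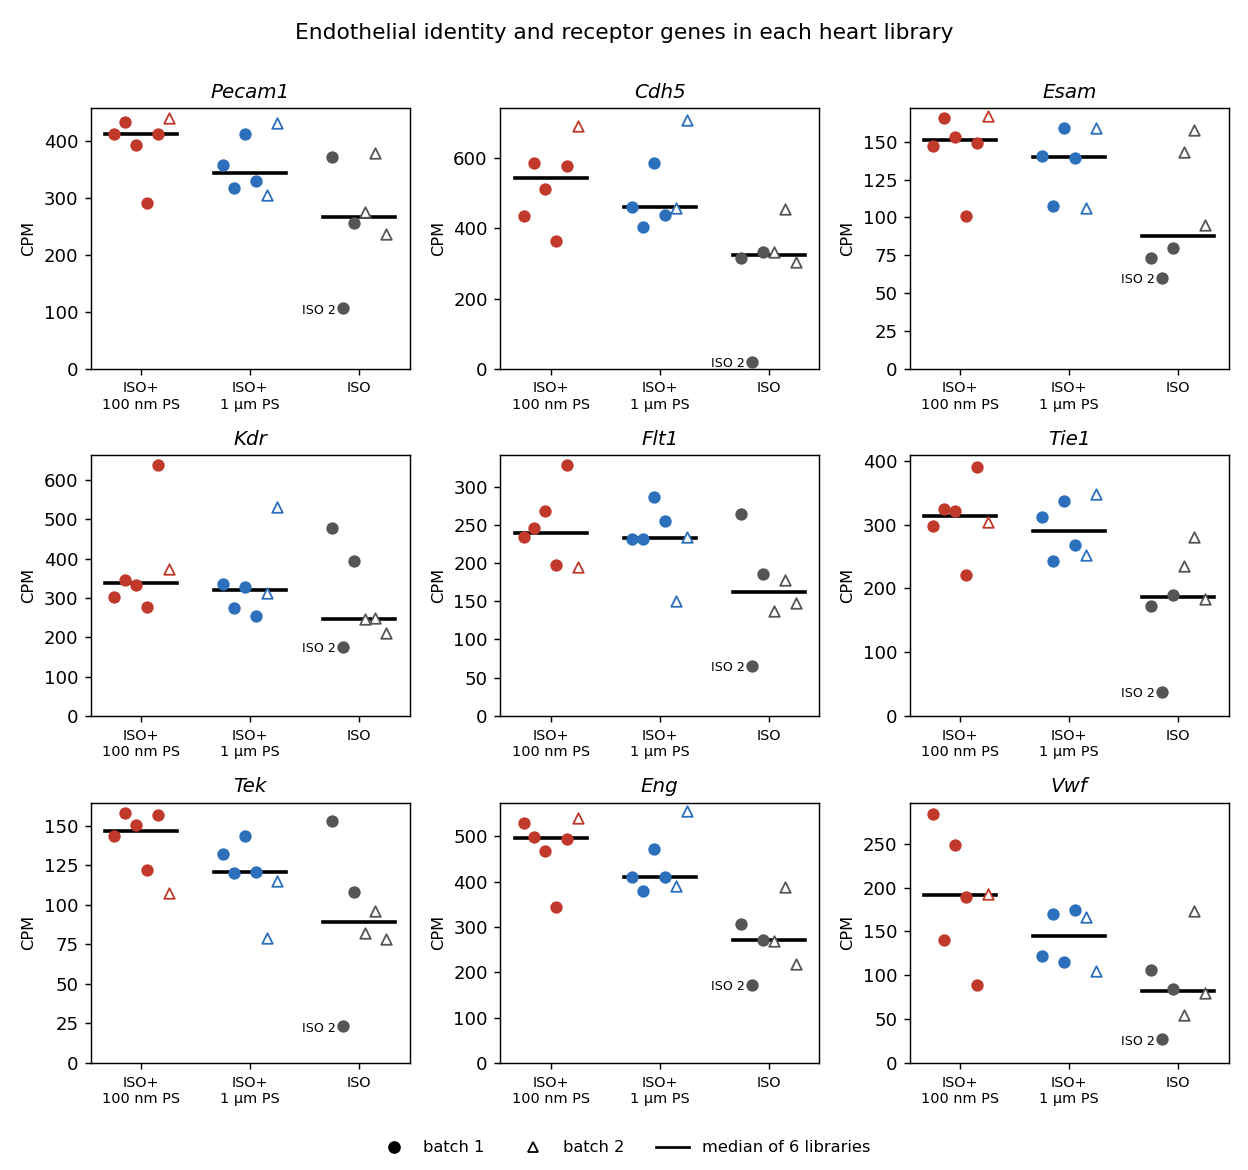
CPM of the 9 genes in each library, with ISO+100 nm PS (red), ISO+1 µm PS (blue) and ISO (grey) from left to right, filled circles for batch 1, open triangles for batch 2 and a line at the median of the 6 libraries. ISO replicate 2 is the lowest point of the ISO group in every panel, at 20.5 CPM for Cdh5, and the groups overlap in every panel.

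Per kb of the longest coding transcript, the scale on which genes can be compared, Eng and Cdh5 stood highest and Vwf lowest. Eng averaged 140 ± 20.7 CPM per kb in 100 nm PS hearts, 127 ± 19.5 in 1 µm PS hearts and 79.2 ± 21.8 in ISO hearts (SD, n = 6 each). Cdh5 averaged 132 ± 29.2, 128 ± 28.8 and 73.5 ± 36.2 on the same scale and in the same order of groups. These neighbours at the top do not differ beyond their spread. Pecam1, with 115 ± 15.9, 104 ± 15.1 and 78.7 ± 29.2, overlapped Cdh5 within 1 SD in all 3 groups. Esam, Tie1 and Kdr followed with means of 78.9, 73.3 and 63.9 in 100 nm PS hearts, 72.6, 69.3 and 57.3 in 1 µm PS hearts and 54.5, 43.2 and 49.4 in ISO hearts. Flt1, Tek and Vwf were lowest, at 35.5, 30.0 and 21.6 in 100 nm PS hearts, 33.6, 25.4 and 16.1 in 1 µm PS hearts and 23.6, 19.4 and 9.87 in ISO hearts.

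Among the adhesion molecules of the cell border, which of them passed at 100 nm depended on the fit. Esam passed with edgeR, and Cdh5 and Pecam1 did not. The limma voom fit, which gave each library a quality weight, called Cdh5 (0.92, adjusted p = 0.0110) and Pecam1 (0.57, adjusted p = 0.0339). It did not call Esam (0.49, adjusted p = 0.103). Without ISO replicate 2, edgeR called Cdh5 and neither Esam nor Pecam1. Esam, an immunoglobulin-family protein of endothelial tight junctions, had a lowest, median and highest CPM of 101, 151 and 167 in 100 nm PS hearts, 106, 140 and 159 in 1 µm PS hearts and 60.1, 87.5 and 158 in ISO hearts. In all, 2 of 6 libraries of each PS group lay above the highest ISO library. Its log2 fold change was 0.72 ± 0.22 (SE, adjusted p = 0.0437) at 100 nm and 0.55 ± 0.21 (adjusted p = 0.103) at 1 µm. The ISO libraries of batch 2 lay apart from those of batch 1, at 95.0 to 158 against 60.1 to 80.1 CPM. The difference was accordingly seen within batch 1 alone, at 1.00 and 0.94 for the 2 sizes, both passing, and not within batch 2 alone, at 0.34 and -0.01, neither passing. The term for a PS difference that changes with the batch was -0.84 ± 0.31 (batch 2 minus batch 1; edgeR, adjusted p = 0.176), so it did not pass. Over the removal of each library in turn the 100 nm value ran from 0.58 to 0.81 and passed in 5 of 18 fits, those without replicate 3 or 5 of 1 µm PS, 4 of 100 nm PS, or 4 or 5 of ISO. For both PS groups together it was 0.63 ± 0.19 (adjusted p = 0.0287) and passed in 15 of 18 fits, all but those without replicate 1, 2 or 6 of ISO, with values of 0.50 to 0.74.

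VE-cadherin RNA had the widest range. Cdh5, the main adhesion protein of endothelial adherens junctions, had a lowest, median and highest CPM of 365, 544 and 693 in 100 nm PS hearts, 403, 460 and 707 in 1 µm PS hearts and 20.5, 324 and 455 in ISO hearts. In all, 4 of 6 libraries in each PS group exceeded every ISO library. The 5 ISO libraries other than replicate 2 ranged from 304 to 455 CPM. The log2 fold change was 1.04 ± 0.42 (adjusted p = 0.108) at 100 nm and 0.92 ± 0.40 (adjusted p = 0.150) at 1 µm. Without ISO replicate 2 it was smaller, 0.71 and 0.61, and passed at both sizes (adjusted p = 0.0182 and 0.0311). Pecam1, an adhesion molecule of endothelial borders, platelets and leukocytes, had 291, 413 and 440 CPM as lowest, median and highest in 100 nm PS hearts, 305, 343 and 431 in 1 µm PS hearts and 106, 266 and 379 in ISO hearts. In all, 5 libraries of 100 nm PS and 2 of 1 µm PS lay above every ISO library. Its log2 fold change was 0.61 ± 0.24 (adjusted p = 0.104) at 100 nm and 0.44 ± 0.23 (adjusted p = 0.228) at 1 µm.

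The VEGF receptors gave small values that did not pass. Kdr had a lowest, median and highest CPM of 276, 339 and 640 in 100 nm PS hearts, 255, 320 and 532 in 1 µm PS hearts and 177, 248 and 478 in ISO hearts. Only 1 library of each PS group lay above all ISO libraries, namely replicate 5 of 100 nm PS and replicate 6 of 1 µm PS. The log2 fold change was 0.36 ± 0.27 (adjusted p = 0.396) at 100 nm and 0.22 ± 0.27 (adjusted p = 0.634) at 1 µm. The batches differed in direction at 1 µm, with -0.24 in batch 1 alone and 0.82 in batch 2 alone, and at 100 nm they gave 0.11 and 0.67, none of them passing. The batch term of Kdr was 0.88 ± 0.46 (adjusted p = 0.329), and without ISO replicate 2 it was 1.21 (adjusted p = 0.0315), a fit in which 2923 genes passed that term. With all libraries 48 genes, or 0.328%, passed it. Flt1 had 195, 240 and 328 CPM in 100 nm PS hearts, 150, 233 and 287 in 1 µm PS hearts and 65.9, 163 and 264 in ISO hearts, in the same order of lowest, median and highest. Its log2 fold change was 0.48 ± 0.25 (adjusted p = 0.214) at 100 nm and 0.45 ± 0.24 (adjusted p = 0.244) at 1 µm.

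Set against each other within a library, the VEGF receptors shifted in opposite directions in the batches. In batch 1 the ratio of Kdr to Flt1 CPM was 1.24 to 1.95 in 100 nm PS hearts, 0.998 to 1.46 in 1 µm PS hearts and 1.81 to 2.68 in ISO hearts. In batch 2 it was 1.93 in the single 100 nm PS library, 2.08 and 2.27 in 1 µm PS hearts and 1.40 to 1.80 in ISO hearts. The 1 µm PS libraries thus lay below every ISO library of batch 1 and above every ISO library of batch 2. The difference between the batches in this ratio was not tested.

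**Figure D2:**
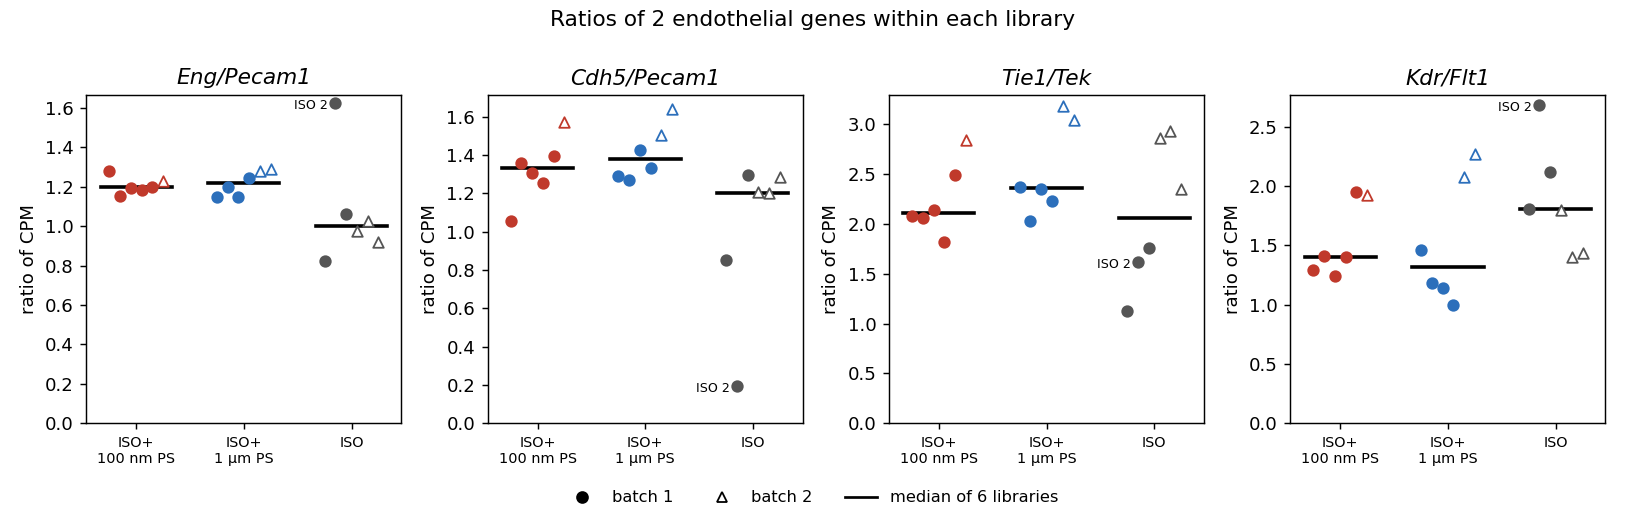
Ratio of the CPM of 2 endothelial genes within each library, by group from left to right (ISO+100 nm PS, ISO+1 µm PS, ISO), with filled circles for batch 1, open triangles for batch 2 and a line at the median of 6 libraries. Eng/Pecam1 is 1.15 to 1.29 in the 12 PS libraries and 0.826 to 1.06 in the ISO libraries other than replicate 2, and Kdr/Flt1 goes in opposite directions in the batches.

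Of the 2 Tie receptor genes, Tie1 gave the larger difference before a GC correction, and Tek the larger value after it. Tie1 had a lowest, median and highest CPM of 222, 313 and 391 in 100 nm PS hearts, 243, 291 and 348 in 1 µm PS hearts and 37.5, 187 and 280 in ISO hearts. Here 5 of 6 libraries at 100 nm and 3 of 6 at 1 µm lay above all ISO libraries. The log2 fold change was 0.92 ± 0.32 (adjusted p = 0.0703) at 100 nm, 0.78 ± 0.30 (adjusted p = 0.107) at 1 µm and 0.85 ± 0.28 (adjusted p = 0.0412) for both PS groups together. Without ISO replicate 2 the values were 0.61 (adjusted p = 0.0359) at 100 nm and 0.55 (adjusted p = 0.0224) for both groups together. The comparison of both groups together passed in 6 of the 18 fits that each left out a library (replicate 5 of 1 µm PS, 4 or 6 of 100 nm PS, or 2, 3 or 5 of ISO), with values of 0.55 to 0.95. Tek, which encodes the angiopoietin receptor TIE2, had 107, 147 and 158 CPM in 100 nm PS hearts, 79.2, 120 and 143 in 1 µm PS hearts and 23.3, 88.8 and 153 in ISO hearts. Its ranges overlapped widely, and its log2 fold change was 0.52 ± 0.29 (adjusted p = 0.245) at 100 nm and 0.33 ± 0.28 (adjusted p = 0.470) at 1 µm. In batch 1 the ratio of Tie1 to Tek was 1.82 to 2.49 in 100 nm PS hearts, 2.03 to 2.37 in 1 µm PS hearts and 1.13 to 1.76 in ISO hearts, with no overlap. In batch 2 it was 2.84 in the 100 nm PS library, 3.03 and 3.18 in 1 µm PS hearts and 2.35 to 2.93 in ISO hearts. When each library was corrected for GC content, Tie1 had log2 fold changes of 0.44 and 0.33 for the 2 sizes. Tek had 0.57 and 0.39, and none of these passed. Tie1 transcripts have 57.6% GC and those of Tek 47.1%. The difference between Tie1 and Tek was not tested.

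Endoglin was the member that passed at both sizes. Eng, the co-receptor that presents BMP ligands to ALK1, had a lowest, median and highest CPM of 344, 497 and 540 in 100 nm PS hearts, 379, 410 and 556 in 1 µm PS hearts and 173, 270 and 389 in ISO hearts. In all, 5 of 6 libraries of each PS group were above the highest ISO library, and all 12 were above the mean of the ISO libraries of their own batch. It was 1.86-fold higher at 100 nm (log2 fold change 0.89 ± 0.19, adjusted p = 0.0142) and 1.65-fold higher at 1 µm (0.72 ± 0.18, adjusted p = 0.0282). For both PS groups together the log2 fold change was 0.81 ± 0.17 (adjusted p = 0.00513). The batches gave nearly the same size, 0.89 in batch 1 and 0.90 in batch 2 at 100 nm and 0.73 and 0.68 at 1 µm, of which the batch 1 value at 100 nm passed. Removal of each library in turn kept the call for both PS groups together in all 18 fits, with values of 0.68 to 0.90. At 100 nm the call was lost without replicate 6 of 100 nm PS (0.89, adjusted p = 0.0525). At 1 µm it was lost without replicate 1, 3, 4 or 6 of 1 µm PS or replicate 4 or 6 of ISO, the values of all 18 fits being 0.61 to 0.82. Correction of each library for GC content ended every call of Eng, with log2 fold changes of 0.36 at 100 nm, 0.22 at 1 µm and 0.29 for both together (adjusted p = 0.237, 0.520 and 0.249).

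Before a GC correction, and with ISO replicate 2 set aside, Eng also stood higher relative to Pecam1. The ratio of Eng to Pecam1 CPM was 1.15 to 1.28 in 100 nm PS hearts of batch 1, 1.15 to 1.25 in 1 µm PS hearts of batch 1 and 0.826, 1.06 and 1.62 in ISO hearts of batch 1, where 1.62 is replicate 2. In batch 2 it was 1.23 in 100 nm PS, 1.28 and 1.29 in 1 µm PS and 0.922 to 1.03 in ISO hearts. Without ISO replicate 2 the ratios of PS and ISO hearts did not overlap. Eng transcripts are richer in GC than those of Pecam1, at 57.4% against 50.2%. When each library was corrected for GC content, Eng had log2 fold changes of 0.36 at 100 nm and 0.22 at 1 µm. Pecam1 had 0.48 and 0.32 in that fit of all libraries, so Eng did not have the larger value there. With ISO replicate 2 also left out of the corrected fit, Eng had 0.32 and 0.19 and Pecam1 0.31 and 0.16. None of these values passed. The ratio itself was not tested.

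Of the 9 genes Vwf gave the largest fold change at 100 nm and, once ISO replicate 2 was left out, followed the other members least. It had a lowest, median and highest CPM of 88.3, 191 and 284 in 100 nm PS hearts, 105, 144 and 174 in 1 µm PS hearts and 27.0, 81.7 and 173 in ISO hearts. Here 4 of 6 libraries at 100 nm and 1 of 6 at 1 µm exceeded the highest ISO library. The log2 fold change was 1.20 ± 0.37 (adjusted p = 0.0459) at 100 nm, 0.75 ± 0.35 (adjusted p = 0.175) at 1 µm and 0.98 ± 0.32 (adjusted p = 0.0433) for both together. The 100 nm call held in 4 of 18 fits that each left out a library, those without replicate 6 of 1 µm PS, 5 of 100 nm PS, or 1 or 5 of ISO, and the value ran from 0.93 to 1.43. The call for both groups together held in the same 4 fits, with values of 0.72 to 1.22 over all 18. With limma voom Vwf did not pass at 100 nm (0.99, adjusted p = 0.0577). The library with the most Vwf, replicate 1 of 100 nm PS, also held 573 CPM of Myl4, the atrial light chain, against 0.789 to 5.90 CPM in the other 17 libraries. Without it the log2 fold change at 100 nm was 1.06 (adjusted p = 0.0970).

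Vwf varied with some endocardial genes more closely than with the other members. With batch means removed, its correlation over 17 libraries without ISO replicate 2 was 0.79 with Plvap, which encodes a diaphragm protein of fenestrated vessels and endocardium, and 0.76 with Cgnl1, a junction protein, the lowest of 7 endocardial genes having 0.43 (Nfatc1). With the other 8 members its coefficients over the same libraries ran from -0.23 (Kdr) to 0.55 (Eng). The points share library, depth, GC composition and the difference between groups. Plvap and Cgnl1 were picked from the endocardial list after their values were seen. Plvap itself had median CPM of 47.5 in 100 nm PS hearts, 30.1 in 1 µm PS hearts and 13.0 in ISO hearts, with a log2 fold change of 1.69 ± 0.47 (adjusted p = 0.0335) at 100 nm and 0.90 ± 0.44 (adjusted p = 0.197) at 1 µm. The summed CPM of 7 endocardial genes was 141 to 427 in 100 nm PS hearts, 152 to 225 in 1 µm PS hearts and 38.0 to 217 in ISO hearts. The part of chamber lining in the Vwf values was not tested.

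**Figure D3:**
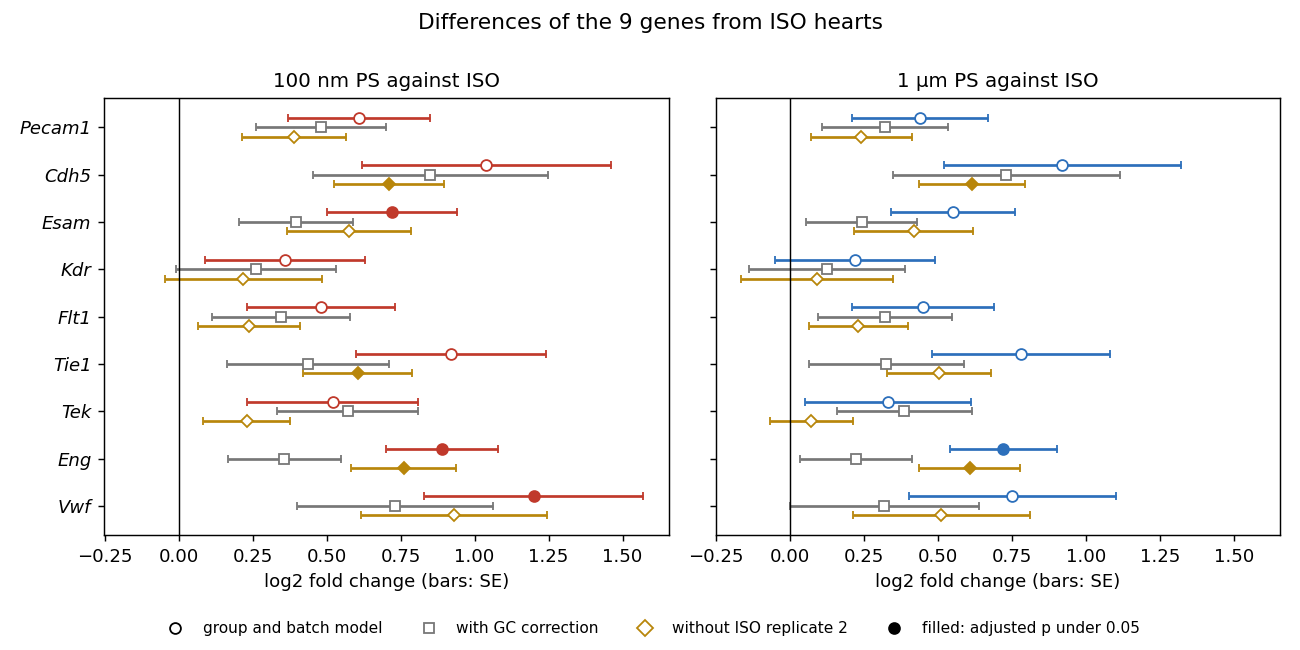
log2 fold change of each of the 9 genes against ISO, with bars for the SE, at 100 nm (left) and 1 µm (right), from the group and batch model (circles), with GC correction (squares) and without ISO replicate 2 (diamonds), filled where the adjusted p was under 0.05. With all libraries Eng, Esam and Vwf pass at 100 nm and Eng at 1 µm, without ISO replicate 2 Cdh5, Eng and Tie1 pass at 100 nm and Cdh5 and Eng at 1 µm, and no square is filled.

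Between the particle sizes no member differed by the test. The log2 fold changes of 1 µm against 100 nm PS were all negative, from -0.45 ± 0.34 for Vwf to -0.03 ± 0.24 for Flt1, with adjusted p of 1.00 each. The 95% intervals leave room for differences in either direction: -0.56 to 0.22 for Eng, -0.60 to 0.26 for Esam, -1.18 to 0.28 for Vwf and -0.97 to 0.71 for Cdh5. In the same contrast 0 of 14623 genes passed with edgeR, and 49 had an unadjusted p under 0.05. DESeq2 (74 genes at an unadjusted p under 0.05) and limma voom also called 0.

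GC content moved with the differences. Across the 9 members the Spearman coefficient between transcript GC content and log2 fold change was 0.73 at 100 nm and 0.80 at 1 µm, given as a description of 9 genes. Tie1, Eng and Vwf have 57.6%, 57.4% and 56.5% GC, and Tek and Kdr have 47.1% and 49.4%. The median over all genes tested is 49.8%. Of the 2686 tested genes with 55% to 60% GC, 10.6% passed as higher at 100 nm and 8.56% at 1 µm, and their median log2 fold change was 0.35 and 0.38. Of the 3747 genes with 45% to 50% GC, 0.801% and 0.267% passed as higher, with medians of -0.08 and -0.05. When each library was corrected for GC content, 0 of the 9 members passed at either size. Of all genes tested, 1 passed at 100 nm, as lower, and 2 at 1 µm, 1 as higher and 1 as lower. In that edgeR fit 3979 genes at 100 nm and 2987 at 1 µm still had an unadjusted p under 0.05. Without the correction 4175 and 3943 genes had one. Among the 9 members 4 had one at 100 nm and 0 at 1 µm, against 6 and 5 without the correction. For both PS groups together 0 members passed and 1829 genes did, 166 as higher and 1663 as lower, where 995 passed as higher and 1595 as lower without the correction. That correction moved the median of all genes to -0.16 at 100 nm, and relative to it the members stood at 0.42 (Kdr) to 1.01 (Cdh5), with Eng at 0.52, Esam at 0.56 and Vwf at 0.89. At 1 µm the median moved to -0.10, and the members stood at 0.22 (Kdr) to 0.83 (Cdh5) above it. With ISO replicate 2 also left out, the values relative to the median of all genes were 0.20 (Flt1) to 0.59 (Cdh5) at 100 nm, with Eng at 0.37, Esam at 0.38 and Vwf at 0.58, and 0.08 (Kdr) to 0.47 (Cdh5) at 1 µm. All 9 members kept a positive value under both of these fits. The part of GC content in the calls was not tested beyond this.

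**Figure D4:**
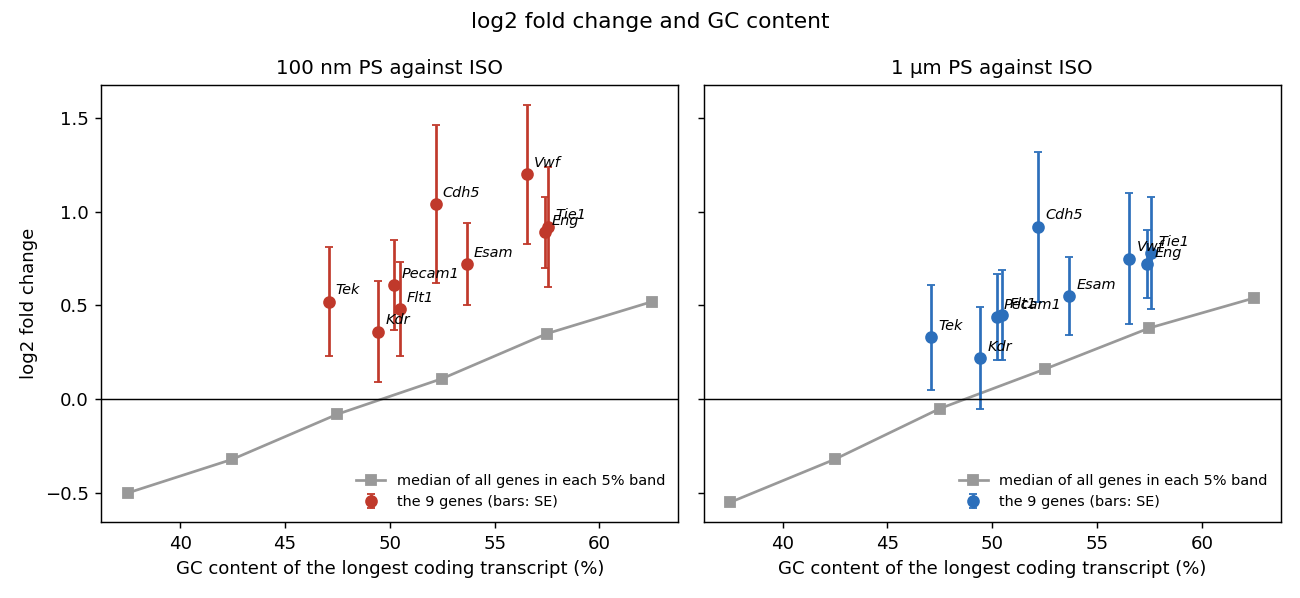
log2 fold change against ISO over the GC content of the longest transcript of a gene, for the 9 genes (circles, bars for the SE) and for all tested genes as the median of each 5% band of GC (grey squares), at 100 nm (left) and 1 µm (right). The medians of all genes climb with GC content, to 0.35 and 0.38 in the band of 55% to 60%, and the 9 genes lie above them.

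ISO replicate 2 had little RNA of the 9 genes, and other endothelial genes went either way there. Their summed CPM was 2108 to 3236 in 100 nm PS hearts, 2221 to 3188 in 1 µm PS hearts and 690 to 2356 in ISO hearts, with 690 in replicate 2 and an ISO median of 1839. Against the mean of ISO replicates 1 and 3, its log2 difference was -3.97 for Cdh5, or 15.7-fold lower, -2.46 for Tek, -2.27 for Tie1, -1.80 for Vwf and -1.75 for Flt1. It was -1.54 for Pecam1, -1.30 for Kdr, -0.74 for Eng and -0.35 for Esam. In the same library 6 of 11 other endothelial marker genes were higher than in both replicates 1 and 3, and 4 were lower than in both. Ly6c1, a surface antigen of microvessels and monocytes, had 601 CPM there, against 137 and 146 in ISO replicates 1 and 3, and the secreted vascular factor Egfl7 had 307 against 39.5 and 111. The summed CPM of these 11 genes was 1469 in ISO replicate 2, the highest of all 18 libraries, with ranges of 816 to 1335 in 100 nm PS, 703 to 1439 in 1 µm PS and 648 to 1469 in ISO hearts. Capillary markers also summed highest there, at 4858. Arterial, venous, endocardial and lymphatic markers summed lowest there of all 18 libraries, at 138, 170, 38.0 and 44.2, as did the vasoactive genes at 684. Macrophage and leukocyte markers also summed highest in ISO replicate 2, at 950 CPM, with ranges of 359 to 601 in 100 nm PS, 359 to 563 in 1 µm PS and 320 to 950 in ISO hearts, and the part of those cells in the Ly6c1 value was not tested.

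**Figure D5:**
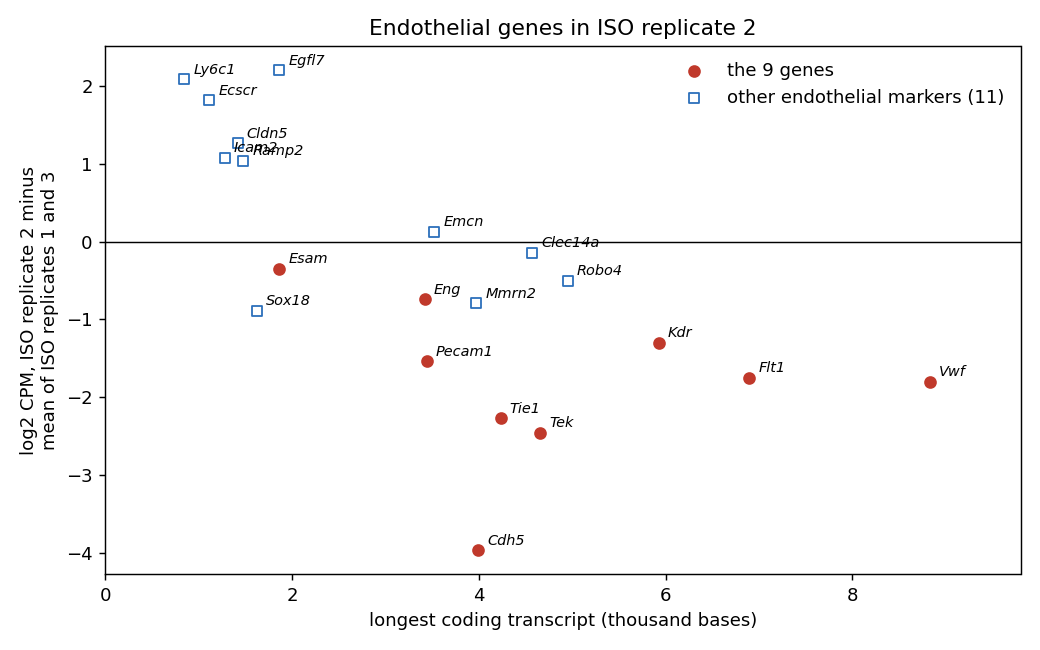
log2 CPM of ISO replicate 2 minus the mean of ISO replicates 1 and 3 over transcript length, for the 9 genes (circles) and 11 other endothelial marker genes (squares). The length is that of the longest coding transcript for the 9 genes and of the longest transcript for the other 11. All 9 genes lie below 0, down to -3.97 for Cdh5, and Ly6c1 and Egfl7 lie above 2.

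The 6 genes that were higher in ISO replicate 2 had transcripts of 844 (Ly6c1) to 1865 bases (Egfl7), where the 9 members have 1865 (Esam) to 8834 (Vwf). Sox18, with 1620 bases, was lower there. Over all tested genes the deviation of that library from its batch mean had a Spearman coefficient of -0.31 with transcript length, and the other ISO libraries ran from -0.34 to 0.39 and the PS libraries from -0.11 to 0.26. Among the 9 members the coefficient of the ISO replicate 2 difference with length was -0.43. The part of transcript length in these values was not tested.

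The members varied together across libraries. Over 18 libraries with batch means removed, the 36 pairwise correlations of log2 CPM had a median of 0.75 and ran from 0.19 to 0.98. Without ISO replicate 2 the median was 0.68 and the range -0.23 to 0.94. Group means were not removed, so these coefficients also hold the shared difference between PS and ISO hearts. No baseline from other gene pairs was taken. Pecam1 followed the others most closely, with a median coefficient of 0.92 with the other 8 members (0.80 without ISO replicate 2). Kdr had 0.61 (0.47) and Vwf 0.70 (0.29). The genes outside the list that were most like the mean log2 CPM of the 9 members were Npr1 (0.985), the natriuretic peptide receptor, Pde2a (0.979), a cyclic nucleotide phosphodiesterase, Ehd2 (0.977), a caveolar protein, App (0.976) and Arap3 (0.975). Without ISO replicate 2 they were Ehd2 (0.958), Npr1 (0.931), Smarcb1 (0.918), Tle3 (0.914) and Rnpep (0.909), so the order depended on that library.

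Among partners of the VEGF receptors, 2 of 17 tested genes passed as higher at 100 nm and 1 at 1 µm, and none as lower. For this list and those below, the shares of all genes were 3.88% as higher and 5.69% as lower at 100 nm. At 1 µm they were 2.89% and 4.5%. The calls of these lists come from the fit without a GC correction. With that correction 0 genes of all tested passed as higher at 100 nm and 1 at 1 µm. The Notch receptor Notch4 had median CPM of 83.1 in 100 nm PS hearts, 84.1 in 1 µm PS hearts and 47.5 in ISO hearts, with log2 fold changes of 0.89 ± 0.17 (adjusted p = 0.0113) and 0.87 ± 0.17 (adjusted p = 0.0132). Its ligand Dll4, which VEGF induces in arterial and tip cells, gave 0.81 ± 0.22 (adjusted p = 0.0287) and 0.69 ± 0.21 (adjusted p = 0.0509). The ligand Vegfa had log2 fold changes of -0.01 and 0.01 and the co-receptor Nrp1 of 0.16 and 0.01 for the 2 sizes, none passing. Of 11 partners of the Tie receptors 0 passed at either size, and the phosphatase Ptprb, which removes phosphate from TIE2, had 0.25 and 0.23. Of 18 genes around endoglin and BMP signalling, 2 passed as higher at 100 nm and 1 at 1 µm. Acvrl1, which encodes ALK1 itself, had median CPM of 77.7, 78.5 and 49.6 in 100 nm PS, 1 µm PS and ISO hearts and log2 fold changes of 0.56 ± 0.16 (adjusted p = 0.0359) and 0.58 ± 0.16 (adjusted p = 0.0312). The inhibitory Smad6 gave 0.76 ± 0.19 (adjusted p = 0.0214) and 0.59 ± 0.18 (adjusted p = 0.0516). The type II receptor Bmpr2 had -0.50 and -0.55, neither passing.

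Some junction genes and transcription factors passed as higher, and the 2 most abundant junction genes did not. Among further junction genes, the adhesion molecule Mcam passed at 100 nm (0.88 ± 0.23, adjusted p = 0.0291) and had 0.74 ± 0.23 (adjusted p = 0.0529) at 1 µm. Plakoglobin (Jup), which links cadherins to the cytoskeleton, passed at 1 µm (0.68 ± 0.19, adjusted p = 0.0401) and had 0.60 ± 0.20 (adjusted p = 0.0607) at 100 nm. Beta-catenin (Ctnnb1) had 0.17 and 0.14 and podocalyxin (Podxl) 0.57 and 0.52 for the 2 sizes, neither passing. Of 16 endothelial transcription factors 3 passed at 100 nm and 1 at 1 µm. These were Sox18 (0.94 ± 0.23, adjusted p = 0.0206) and Elk3 (0.56 ± 0.17, adjusted p = 0.0471) at 100 nm and Gata2 at both sizes (0.83 ± 0.24 and 0.81 ± 0.23, adjusted p = 0.0370 and 0.0401). Of 14 genes of haemostasis and Weibel-Palade bodies, Mmrn2, a matrix protein of the endothelium, alone passed at each size (0.74 ± 0.20 and 0.64 ± 0.19). Of 8 leukocyte-adhesion and activation genes 0 passed, Vcam1 having -0.04 and 0.09 and Icam1 0.53 and 0.50.

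Of 12 vasoactive genes, 3 enzymes that set vessel tone passed as higher at 100 nm and 2 at 1 µm, and the median log2 fold change of the 12 was 0.24 and 0.16. The abundant caveolar genes Cav1 (0.16 and 0.07) and Cavin2 (0.00 and -0.08) did not pass. Nos3, endothelial nitric oxide synthase, had median CPM of 108 in 100 nm PS hearts, 100.0 in 1 µm PS hearts and 54.9 in ISO hearts, with log2 fold changes of 1.12 ± 0.30 (adjusted p = 0.0286) and 0.98 ± 0.29 (adjusted p = 0.0460). Ace, the angiotensin-converting enzyme, had 107, 119 and 61.9 CPM as medians in the same order and log2 fold changes of 1.00 ± 0.18 (adjusted p = 0.0100) and 1.12 ± 0.18 (adjusted p = 0.0113). Ece1, which makes endothelin, gave 1.01 ± 0.26 (adjusted p = 0.0247) at 100 nm and 0.76 ± 0.25 (adjusted p = 0.0652) at 1 µm. In ISO replicate 2 these genes were low as well, with 12.2 CPM of Nos3, 29.9 of Ace and 36.8 of Ece1.

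Markers of the kinds of endothelium gave counts that ranged from 0 to 3 passed as higher. Of 11 other pan-endothelial markers 3 passed as higher at 100 nm and 2 at 1 µm, with Robo4, a guidance receptor, at 0.79 ± 0.20 and 0.71 ± 0.19. The other calls were Mmrn2 at both sizes and Sox18 at 100 nm, which are also counted in the haemostasis and transcription factor lists above. The median log2 fold change of those 11 was 0.14 and 0.05, with Egfl7 at 0.06 and -0.13 and Ly6c1 at -0.42 and -0.37, none of these passing. Of 10 arterial markers 3 passed as higher at 100 nm and 1 at 1 µm, with a median of 0.78 and 0.51. Alpl, a phosphatase, was among them with 1.19 ± 0.30 and 1.26 ± 0.29, and the connexin Gja4 gave 0.80 ± 0.24 at 100 nm. The remaining arterial call at 100 nm was Dll4, which is also counted among the partners of the VEGF receptors. Of 9 capillary markers 0 passed as higher and 1 as lower at each size, and the median was -0.18 and -0.22. The gene that fell was the fatty acid transporter Cd36, which cardiomyocytes also express, with median CPM of 955 in 100 nm PS hearts, 866 in 1 µm PS hearts and 1303 in ISO hearts and log2 fold changes of -0.74 ± 0.23 (adjusted p = 0.0491) and -0.80 ± 0.23 (adjusted p = 0.0401). Of 6 venous and 7 lymphatic markers 0 passed at either size, with medians of 0.64 and 0.41 and of 0.81 and 0.49, and of 7 endocardial markers Plvap alone passed, at 100 nm. Differences between these lists were not tested.

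Some markers of pericytes, smooth muscle and fibroblasts passed as higher too. Of the non-endothelial lists, 3 of 8 pericyte markers passed as higher at both sizes (Pdgfrb, Cspg4 and Notch3), 3 of 8 smooth muscle markers at both sizes, and 4 of 10 fibroblast markers at 100 nm and 1 at 1 µm. A positive log2 fold change was seen in 4 of 8 pericyte markers at 100 nm and 5 at 1 µm. The abundant pericyte markers Rgs5 (-0.25 and -0.17) and Abcc9 (-0.49 and -0.12) had negative values that did not pass. Of 10 cardiomyocyte markers 1, Pln, passed as lower at both sizes, and the median of the list was -0.43 and -0.33. None of 10 macrophage and leukocyte, 8 platelet and erythroid and 8 mesothelial markers passed at either size. All 8 mesothelial markers had a positive log2 fold change at both sizes, with medians of 1.89 and 1.19. Their summed CPM was 23.6 to 174, 13.9 to 94.9 and 3.48 to 145 in 100 nm PS, 1 µm PS and ISO hearts. Medians were 0.83 and 0.86 for smooth muscle, 0.63 and 0.29 for fibroblast and -0.02 and 0.05 for pericyte markers. Those of macrophage and leukocyte markers were -0.05 and -0.07, and of platelet and erythroid markers -0.35 and -0.41. The summed CPM of the cardiomyocyte markers was 45160 to 90340 in 100 nm PS hearts, 51130 to 127500 in 1 µm PS hearts and 50320 to 100300 in ISO hearts. That of the smooth muscle markers was 621 to 1201, 673 to 1174 and 297 to 980 and that of the fibroblast markers 3507 to 6465, 3614 to 5249 and 2474 to 3904, in the same order of groups. Platelet and erythroid markers, of interest because platelets also carry PECAM-1 and von Willebrand factor, summed to 338 to 1214, 258 to 1056 and 285 to 2926 CPM, with 2926 in ISO replicate 2. The part of these cells in the values of the 9 genes was not tested.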

How the data were processed

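Polyadenylated RNA from mouse hearts was sequenced as 18 paired-end libraries by 2 providers, taken as the batches, per the labels' protocols. The table of batch 1 deposited by the authors gives raw counts per gene, and 215 of its 46548 entries have no gene name, hold 0.16% to 0.39% of a library's counts and were left out. The table of batch 2 deposited by the authors gives an estimated count per gene in 57010 entries. Of its nonzero values 19.6% are not whole, and they were rounded to whole numbers. Tools named in the submitters' processing notes, without roles or order, are featureCounts 1.5.0-p3, HISAT2 2.0.5, StringTie 1.3.3b, DESeq2 and fastp, with the builds GRCm39 and mm39. Which of them counted batch 2, and whether strand was used, is not stated there.

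The tables were joined on 22146 pairs of gene numbers and 13414 symbols, and the joined genes hold 98.93% to 99.54% of the counts in batch 1. In batch 2 they hold 93.13% to 95.78% in PS and 85.16% to 87.45% in ISO libraries. No duplicate library was found among 23 pairs of the same group and batch, whose lowest chi-square per gene was 13.2.

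In R 4.3.3, edgeR 4.0.16 (TMM factors, filterByExpr with a minimum count of 10, robust quasi-likelihood test) was fitted to all 18 libraries with terms for group and batch, leaving 14 residual degrees of freedom, and checked on simulated data. The SE is the log2 fold change divided by the square root of F. CPM are scaled by TMM, with a prior count of 2 on the log2 scale. Alternatives were RLE factors, no filter, 1 CPM in 6 libraries, DESeq2 1.42.0, limma 3.58.1 voom, no batch term, each batch alone, the replicate number as a block, a GC correction (spline with 5 degrees of freedom, GC content of the longest GENCODE M21 transcript), ISO replicates 1 and 2 left out, and each library left out. The voom fit used a quality weight for each library. The GC correction without ISO replicate 2 was added after seeing the data.

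The 9 members, the lists and the tests were chosen with earlier results of these data known. From each list the text gives the counts that passed, with values for up to 3 of its most abundant genes and up to 4 that passed in a comparison of a size with ISO. Likeness is Pearson's r with the mean log2 CPM of the 9 members, batch means removed. The count over the list of junction genes is not reported here.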

Additional observations from a re-analysis of the deposited data

Results flagged for a closer look

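Among 27 sets of 6 libraries (9 genes in 3 groups), 6 had a library far from the others by Dixon's criterion at 95%, which chance gives in about 1 of 20 sets. Replicate 4 of ISO+100 nm PS was the lowest of its group for Pecam1 (290.8 CPM, the next library at 392.3), Eng (343.8 and 468.8) and Esam (101.0 and 147.0). Replicate 5 of ISO+100 nm PS had the highest Kdr, 639.8 CPM, with the next library at 374.6. Replicate 6 of ISO+1 µm PS had the highest Kdr of its group, 532.0 CPM, with the next at 336.4. ISO replicate 2 had the lowest Cdh5 of its group, 20.54 CPM, with the next at 303.7.

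The ratio of Kdr to Flt1 differed between the batches in direction. On the log2 scale, ISO+1 µm PS minus ISO was -0.88 in batch 1 (means 0.25 and 1.12) and 0.50 in batch 2 (means 1.12 and 0.62), with every 1 µm PS library below all ISO libraries in batch 1 and above all of them in batch 2. This difference between the batches was not tested. No cause was tested for any of these values.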

How the results depend on the processing

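The number of members and of genes that passed moved with the fit. The values below give members and then genes, in 100 nm PS against ISO, 1 µm PS against ISO, and both PS groups against ISO, whose counts in the model of the report were 3 and 1399, 1 and 1081, and 4 and 2590. Without a filter they were 1 and 717 at 100 nm, 481 genes at 1 µm. With DESeq2 they were 2603 genes at 100 nm, and 2 and 2348 at 1 µm; limma voom gave 2 members at 1 µm, and its 3 members at 100 nm were Cdh5, Eng and Pecam1. Without a batch term they were 0 and 0 at both sizes (with 2759 genes at an unadjusted p under 0.05 at 100 nm), and 1 and 709 for both groups. Batch 1 alone gave 598 genes at 1 µm and 2 members for both groups. Batch 2 alone, where the single 100 nm PS library was assumed to vary like the others, gave 0 and 7, 0 and 11, and 0 and 272, and 1 gene between the sizes. With the GC correction they were 0 and 1, 0 and 2, and 0 and 1829 for both groups (166 higher, 1663 lower); with ISO replicate 2 also left out they were 0 and 0, 0 and 3, and 0 and 131. With ISO replicates 1 and 2 left out they were 1 and 606 at 100 nm, and 2 and 1543 for both groups. The causes of these moves were not tested.

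The replicate block gave 0 and 0 at both sizes and 1 and 467 for both groups, where Eng passed. Libraries with the same replicate number had correlations of their deviations from -0.437 to 0.229. These were not set against libraries of unlike number, so they cannot show if the numbers pair the samples. Leaving out each library in turn gave 0 to 3 members and 170 to 2283 genes at 100 nm, 0 to 2 and 265 to 2334 at 1 µm, and 1 to 4 and 1925 to 3458 for both groups. The batch-by-PS term passed in 48 genes, in 139 with RLE factors, and in 5 to 2923 without a library, with 0 to 1 members.

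Some values of single genes that had not passed turned direction. In batch 1 alone Kdr was -0.24 at 1 µm and -0.06 for both groups, and in batch 2 alone Esam was -0.01 at 1 µm. Between the sizes Kdr was 0.15 in batch 2 alone, and Flt1 was 0.03 with voom and 0.01 with the block. With a library left out, Kdr ran from -0.01 (1 µm PS replicate 6 left out) to 0.43 at 1 µm (ISO replicate 1 left out). Between the sizes Kdr ran from -0.32 to 0.05 and Flt1 from -0.09 to 0.05, both highest without 100 nm PS replicate 5. In the batch-by-PS term, Pecam1 ran from -0.62 to 0.20, Cdh5 from -0.74 to 0.22, Flt1 from -0.69 to 0.17, Tek from -0.81 to 0.20, Eng from -0.21 to 0.23 and Vwf from -0.94 to 0.06; the highest value was without ISO replicate 5 for Eng and Vwf and without ISO replicate 2 for the other 4. No value that passed reversed under these settings.

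The limits are the spread of 6 libraries a group, with 3 ISO libraries in each batch and only 1 library of 100 nm PS in batch 2. A further limit is that the libraries of the 2 sequencing providers stand in separate count tables.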
